A study of Mus musculus with 6 samples.

Results

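A set of 43 genes of the interferon response, nucleic acid sensing and antigen presentation by major histocompatibility complex (MHC) class I was followed in mouse embryoid bodies (Ebs) exposed to retinoic acid (RA). The genes were listed by symbol, each was read from a probe set that carries that symbol alone, and the brightest such probe set was used where a gene had several. By this rule 39 of the 43 members were measured, among 19938 genes with such a probe set. Isg15, H2-D1 and H2-K1 lay only on probe sets shared with other symbols and Ifi44 on no probe set named here, so none of these 4 is described.

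Ebs are aggregates in which embryonic stem cells differentiate. They were grown from the established mouse line R1, from 35000 single cells per ml, without leukaemia inhibitory factor (Lif), in low cell binding dishes. RA was added at 2 μM to Ebs that were 4 days old. The 3 groups were Ebs just before RA (day 0), Ebs after 3 days in RA (day 3) and Ebs after 4 days in RA (day 4), with 2 samples each, all without Lif and all from 1 cell line. Values are log2 intensities from 6 Affymetrix Mouse Gene 1.0 ST arrays, normalized by Robust Multichip Average (RMA), and changes are differences of these values. Untreated Ebs as old as those of day 3 or day 4 are not analysed here, so effects of RA and of longer culture cannot be told apart. The labels do not say whether the 2 samples of a day came from separate cultures. For day 0 and day 4 the paper describes 2 biological replicates from a repeated procedure, without tying them to these arrays. The p-values therefore cover only the spread between these samples, which may be technical.

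Interferons are secreted proteins that bind receptors on the cell surface. The receptors activate Janus kinases, which phosphorylate STAT proteins. Phosphorylated STAT proteins, some of them bound to interferon regulatory factor 9, then switch on interferon-induced genes through short DNA elements, the interferon-stimulated response element (ISRE) and the gamma-activated site (GAS). Many of the induced genes restrict viruses, and others build the MHC class I pathway, in which the immunoproteasome cuts proteins, the transporter TAP carries the peptides into the endoplasmic reticulum and tapasin helps load them onto class I molecules. Pluripotent stem cells are known for a weak response to interferon and to viral RNA, and they keep some of the effector genes on without interferon.

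The promoter sequences are given first because the list joins genes with very different changes, and the windows show which of them carry the motifs that interferon signalling uses. The windows run from 250 bases before to 50 bases after the annotated start, as given by RefSeq for assembly GRCm38.p6, and 35 of the 39 measured genes had at least 1. The motif searched for the ISRE was GAAANNGAAA on both strands, and that for the GAS was TTCNNNGAA, which reads the same on both strands. The 2 motifs can overlap, as in Ifitm3. Of the 35 genes 11 held an ISRE motif (31.4%), against 3.99% of the 27025 genes with windows of the same length, and 11 held a GAS motif (31.4%), against 9.55%. The sequences below run 5′ to 3′ along the gene, with matches in capitals, and a match is a description of the letters and not evidence of a bound site. Shown are Irf1 and Psmb8, which fell and hold a GAS match, Ifih1, which fell and holds an ISRE match, Tap1, which fell and holds neither, Ifi203 and Ifit2, which rose and hold 1 match each, Ifitm3, which fell and holds 3, and B2m, which was not called and holds an ISRE match.
Irf1, chr11:53769764-53770063, plus strand: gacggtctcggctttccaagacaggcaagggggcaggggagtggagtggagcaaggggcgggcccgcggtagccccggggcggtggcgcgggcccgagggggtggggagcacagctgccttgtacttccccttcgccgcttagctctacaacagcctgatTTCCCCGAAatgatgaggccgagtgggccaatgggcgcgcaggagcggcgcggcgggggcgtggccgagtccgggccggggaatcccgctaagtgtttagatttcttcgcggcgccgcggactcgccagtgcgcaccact
Psmb8, chr17:34197945-34198244, plus strand: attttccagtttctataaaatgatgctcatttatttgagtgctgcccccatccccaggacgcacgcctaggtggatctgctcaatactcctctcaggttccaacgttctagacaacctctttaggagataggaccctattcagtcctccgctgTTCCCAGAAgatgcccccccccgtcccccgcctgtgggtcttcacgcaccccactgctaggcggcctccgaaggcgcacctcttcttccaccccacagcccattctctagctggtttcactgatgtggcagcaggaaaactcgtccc
Ifih1, chr2:62646206-62646505, minus strand: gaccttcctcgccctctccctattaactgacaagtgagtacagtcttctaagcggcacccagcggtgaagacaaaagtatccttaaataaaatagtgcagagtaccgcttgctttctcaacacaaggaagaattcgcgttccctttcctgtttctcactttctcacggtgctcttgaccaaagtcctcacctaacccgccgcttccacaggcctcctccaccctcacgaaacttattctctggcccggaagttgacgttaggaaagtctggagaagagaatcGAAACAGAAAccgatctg
Tap1, chr17:34187306-34187605, plus strand: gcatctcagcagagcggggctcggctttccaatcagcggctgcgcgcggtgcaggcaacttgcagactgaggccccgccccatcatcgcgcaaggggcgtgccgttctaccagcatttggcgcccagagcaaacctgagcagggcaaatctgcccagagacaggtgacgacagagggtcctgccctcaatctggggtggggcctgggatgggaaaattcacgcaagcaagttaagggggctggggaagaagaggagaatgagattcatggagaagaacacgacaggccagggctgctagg
Ifi203, chr1:173942443-173942742, minus strand: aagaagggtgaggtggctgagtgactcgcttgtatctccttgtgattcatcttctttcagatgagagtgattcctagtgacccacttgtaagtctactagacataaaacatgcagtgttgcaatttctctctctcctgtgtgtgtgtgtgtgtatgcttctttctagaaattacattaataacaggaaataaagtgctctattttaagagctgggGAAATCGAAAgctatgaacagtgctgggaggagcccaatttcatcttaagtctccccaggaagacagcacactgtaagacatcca
Ifit2, chr19:34550444-34550743, plus strand: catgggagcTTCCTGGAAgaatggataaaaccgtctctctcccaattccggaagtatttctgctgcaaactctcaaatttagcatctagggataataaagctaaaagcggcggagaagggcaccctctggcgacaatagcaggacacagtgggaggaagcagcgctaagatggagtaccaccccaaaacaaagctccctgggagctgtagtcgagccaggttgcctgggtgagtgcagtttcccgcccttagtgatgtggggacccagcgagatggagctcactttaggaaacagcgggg
Ifitm3, chr7:141010695-141010994, minus strand: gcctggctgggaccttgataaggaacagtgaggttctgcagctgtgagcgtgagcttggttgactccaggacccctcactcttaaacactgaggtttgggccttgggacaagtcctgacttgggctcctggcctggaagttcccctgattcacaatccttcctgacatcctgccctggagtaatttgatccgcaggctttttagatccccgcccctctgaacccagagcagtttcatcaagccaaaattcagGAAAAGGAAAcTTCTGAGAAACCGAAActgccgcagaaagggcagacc
B2m, chr2:122147437-122147736, plus strand: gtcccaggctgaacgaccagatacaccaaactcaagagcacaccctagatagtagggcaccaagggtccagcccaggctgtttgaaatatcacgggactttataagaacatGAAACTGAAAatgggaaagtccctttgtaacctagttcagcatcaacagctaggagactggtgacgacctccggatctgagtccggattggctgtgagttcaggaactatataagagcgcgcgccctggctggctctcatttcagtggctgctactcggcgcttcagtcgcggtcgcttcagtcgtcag

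With position 1 at the annotated start, the GAS match lay at -90 to -82 in Irf1, at -97 to -89 in Psmb8 and at -241 to -233 in Ifit2. The ISRE match lay at 33 to 42 in Ifih1, at -35 to -26 in Ifi203 and at -139 to -130 in B2m. Irf1, Ifi203 and Ifit2 each had a further window without a match, which is not printed. The Tap1 window shared 275 bases with that of Psmb9, which is transcribed from the other strand, so these 2 genes start head to head and the sequence of Tap1 serves for both. Among genes that were higher at day 4 than at day 0, 2 of 9 with a window held an ISRE match and 4 of 9 a GAS match. Among genes that were lower the counts were 6 of 17 and 6 of 17, and among genes that were not called 3 of 9 and 1 of 9. Genes with either motif were therefore found among those that rose, those that fell and those that were not called.

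Most of the measured genes differed between Ebs in RA and Ebs before RA, and more of them were lower than higher. At day 4 versus day 0, 29 of the 39 genes were called (74.4%), that is, had an adjusted p of 0.05 or below in limma, against 51.5% of all 19938 genes. Of these, 9 were higher, against 25.9% of all genes, and 20 were lower, against 25.6% of all genes. At least 2-fold higher were 4 genes, against 5.82% of all genes, and at least 2-fold lower were 12, against 4.61% of all genes. The median change of the 39 genes was -0.25, against 0.00 over all genes, with a range of -3.70 to 5.42. At day 3 versus day 0, 30 of the 39 genes were called (76.9%), against 51.9% of all genes, with 10 higher, against 23.8%, and 20 lower, against 28.1%. At least 2-fold higher at day 3 were 3 genes, against 5.14%, and at least 2-fold lower were 13, against 4.09%. Both comparisons use the same day 0 arrays, so they are not independent. The same 9 genes were higher and the same 19 genes lower in both, Ifit1 was called lower at day 4 alone, Jak1 was called higher and Ifngr2 lower at day 3 alone, and 8 genes were called at neither day.

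Between the 2 days in RA the changes of the 39 genes ranged from -0.29 to 0.67. At day 4 versus day 3, 14 of the 39 genes were called (35.9%), against 28.1% of all genes, with 12 higher, against 15.8%, and 2 lower, against 12.2%. None of the called genes reached 2-fold, and of all 19938 genes only 153 did. The number of calls depended on single arrays, for these genes and for all genes alike. Without any 1 of the day 3 or day 4 arrays, fewer of the 39 genes and fewer of all genes were called. The calls of Ifi203, Ifi30, Ifitm3, Ifngr2 and Irf8 were kept under every alternative tried other than a 2-fold limit, and the other 9 were each lost under at least 1. In bulk RNA, fewer cells of a type and less RNA per cell cannot be told apart, and this holds for every change given here. The 2 arrays of a day differed by a median of 0.08 over the 39 genes, and the widest gap was 0.54, for Usp18 at day 3.

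Small changes have no settled direction in these data. Centring each array on its median over all probe sets put the median gene at 0.11, against 0.00 without centring, at day 4 versus day 0 and at 0.18, against 0.05, at day 4 versus day 3, and the members then split into 12 higher and 17 lower at day 4 versus day 0 and 15 higher and 0 lower at day 4 versus day 3. Over all genes the split moved to 7132 higher and 3915 lower, against 5154 and 5106 without centring, at day 4 versus day 0. At day 4 versus day 3 it moved to 8829 higher and 1381 lower, against 3156 and 2437. Centring over the genes tested, an alternative chosen after the data were seen, put the median gene at -0.15 at day 4 and at day 3 versus day 0, against 0.00 and -0.05 without centring, and gave 9 higher and 24 lower members at day 4 versus day 0 and 8 higher and 22 lower at day 3 versus day 0. Over all genes it gave 3781 higher and 8521 lower at day 4 versus day 0, 3889 higher and 8495 lower at day 3 versus day 0, against 4749 and 5596 without centring, and 2268 higher and 3081 lower at day 4 versus day 3. No called member changed its sign under either centring.

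**Figure D1:**
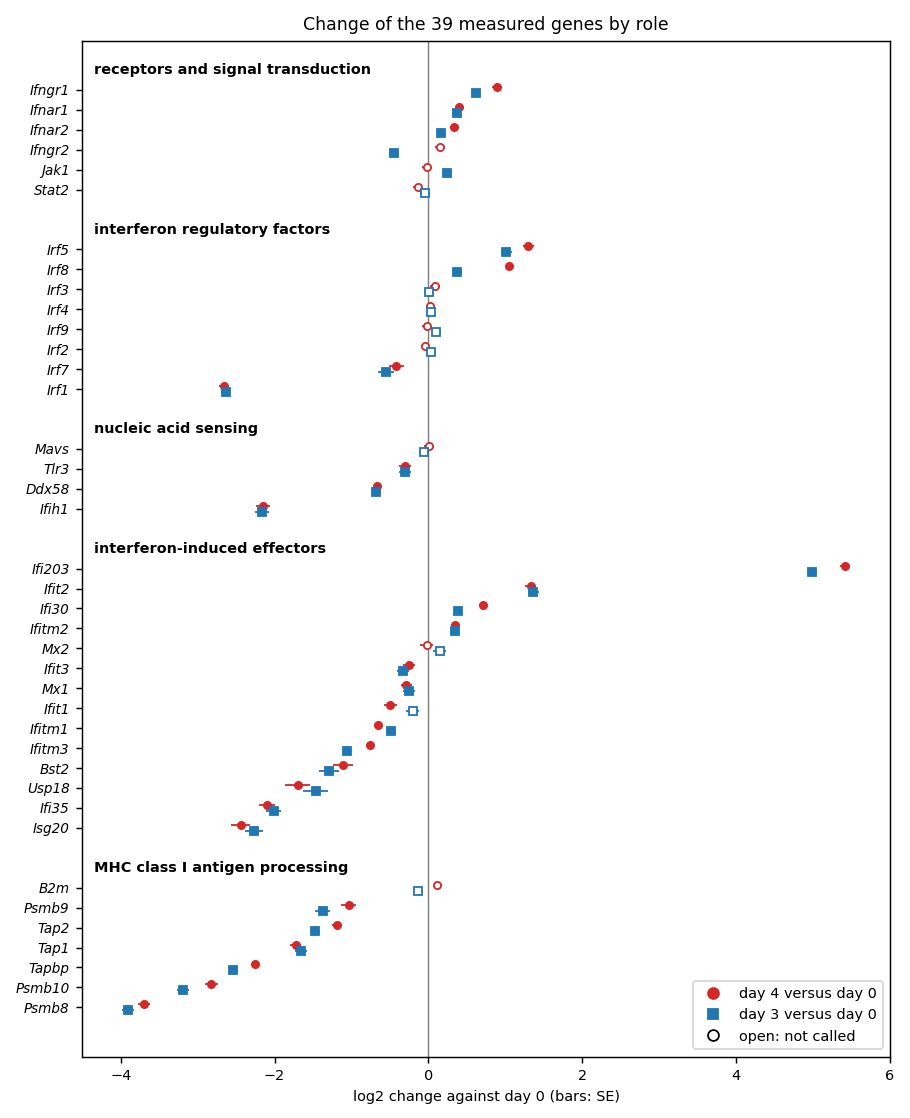
Log2 change against day 0 (horizontal axis) of the 39 measured genes, grouped by role, with day 4 as red circles, day 3 as blue squares, SE bars and open symbols for changes that were not called. Ifi203 stands alone at 5.42 on day 4, and 6 of the 7 genes of MHC class I processing lie between -3.91 and -1.04.

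Of the 6 receptors and signal transducers 3 were higher at day 4 than at day 0, 0 were lower and 3 were not called, with a median change of 0.25. The share called, 3 of 6, is close to the 51.5% of all genes. Ifngr1, the ligand-binding chain of the receptor for type II interferon, measured 8.70 and 8.61 on day 0, 9.21 and 9.34 on day 3 and 9.56 and 9.55 on day 4. Its arrays did not overlap between any of the days. It was higher by 0.90 (SE 0.07, adjusted p = 1.99e-05) at day 4 versus day 0, by 0.62 (adjusted p = 0.000154) at day 3 versus day 0 and by 0.28 (adjusted p = 0.0191) at day 4 versus day 3. Ifnar1 and Ifnar2, the chains of the type I interferon receptor, were higher at day 4 by 0.40 (SE 0.06) and 0.34 (SE 0.06), and at day 3 by 0.37 and 0.16. The call of Ifnar2 at day 3 was lost with the replicate number as a block (adjusted p = 0.0600) and with only the 2 days compared (adjusted p = 0.0551). It was also lost under either median centring and with each array left out in turn.

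Ifngr2, the signalling chain of the type II receptor, took a different course. It measured 11.53 and 11.47 on day 0, 10.97 and 11.13 on day 3 and 11.64 and 11.68 on day 4. Both day 3 arrays lay under all others. It was lower by -0.45 (SE 0.07, adjusted p = 0.000913) at day 3 versus day 0, changed by 0.16 (adjusted p = 0.0932) at day 4 versus day 0 and was higher by 0.61 (SE 0.07, adjusted p = 0.00125) at day 4 versus day 3. Jak1, the kinase that both receptor types use, had the opposite shape, at 10.55 and 10.51 on day 0, 10.73 and 10.83 on day 3 and 10.54 and 10.48 on day 4, with a change of 0.25 (adjusted p = 0.0102) at day 3 versus day 0 and of -0.27 (adjusted p = 0.0151) at day 4 versus day 3. The first call was lost with median centring over the genes tested and without the second array of day 0 or of day 3. The other was lost with median centring over all probe sets (-0.14) and without the second array of day 3 or of day 4. Stat2, the STAT protein specific to type I and type III interferon, changed by -0.14 (adjusted p = 0.102) at day 4 and -0.04 at day 3 and was not called. Ifnar1 and Ifngr2 are neighbours on chromosome 16.

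Among the 8 interferon regulatory factors, a family of transcription factors, 2 were higher, 2 lower and 4 not called at day 4 versus day 0, with a median change of 0.00, and 4 of 8 called is again close to the share of all genes. Irf1, which drives MHC class I and immunoproteasome genes, measured 10.78 and 10.88 on day 0, 8.16 and 8.22 on day 3 and 8.16 and 8.18 on day 4. All arrays of Ebs in RA lay far under both day 0 arrays, and the days in RA overlapped. The change was -2.66 (SE 0.06, adjusted p = 1.13e-07) at day 4 versus day 0, a 6.31-fold lower intensity, and -2.64 at day 3 versus day 0. A dimmer second probe set of Irf1 also lay lower, by -0.34 at day 4. The promoter of Irf1 is the one printed above with the GAS match.

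Irf5 and Irf8, which are best known from cells of the immune system, rose. Irf5 measured 6.54 and 6.69 on day 0, 7.59 and 7.66 on day 3 and 7.88 and 7.95 on day 4, and was higher by 1.30 (SE 0.07, adjusted p = 4.33e-06) at day 4 and 1.01 at day 3. Irf8 measured 7.03 and 7.02 on day 0, 7.35 and 7.45 on day 3 and 8.07 and 8.09 on day 4. Its arrays were separate for all 3 days, with a change of 1.05 (SE 0.06, adjusted p = 4.47e-06) at day 4, of 0.38 (adjusted p = 0.000986) at day 3 and of 0.67 (adjusted p = 0.000517) between day 4 and day 3. Because both factors mark immune cells, markers of such cells were read beside them. Of 16 measured immune and microglial markers 11 were undetectable by the limits of the study's methods, a mean intensity under 6 and an SD under 0.3. Over all 16 the mean level per array was 5.57 to 5.61 on day 4 and 5.57 to 5.60 on day 3. On day 0 it was 5.85 to 5.86. At day 4 versus day 0, 0 of the 16 were higher and 4 lower, against 25.9% and 25.6% of all genes. The 4 were Cd68 (-1.62), Laptm5 (-0.91), Spi1 (-0.58) and Coro1a (-0.37). Cd68 averaged 8.72 on day 0 and 7.10 on day 4, and Laptm5 7.75 and 6.84, so both stayed above 6. Which cells carried the signal of Irf5 and Irf8 was not tested. Ptprc, the gene of the leukocyte antigen CD45, averaged 5.37 on day 0, 5.24 on day 3 and 5.21 on day 4.

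The other factors were dim or not called. Irf7, the factor that amplifies type I interferon production, measured 5.64 and 5.58 on day 0, 4.90 and 5.21 on day 3 and 5.13 and 5.25 on day 4, and was lower by -0.41 (adjusted p = 0.0109) at day 4. It met the undetectable limits, and its call at day 4 was lost without the first day 0 array (adjusted p = 0.0600) and without the first day 4 array (adjusted p = 0.0696). Irf2, Irf3 and Irf9 changed by -0.04, 0.09 and -0.02 at day 4 and were not called there, though each was called under a median centring, at intensities between 8.33 and 8.93. Irf4 stayed between 5.03 and 5.14 on all arrays, and it is one of the genes that the study picked as spike-in sources for low signal on these arrays, so its low level is not independent evidence.

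The sensors of foreign nucleic acid fell or were not called. Of 4 genes 3 were lower at day 4 than at day 0, 0 were higher and 1 was not called. Over all genes 51.5% were called and 25.6% were lower. Ifih1, which encodes MDA5, a cytoplasmic sensor of long double-stranded RNA, measured 7.32 and 7.58 on day 0, 5.25 and 5.33 on day 3 and 5.37 and 5.23 on day 4. All 4 arrays of Ebs in RA were under the intensity of 6 that the study's methods use for dim genes, and the change was -2.15 (SE 0.09, adjusted p = 1.72e-06) at day 4 and -2.16 at day 3. Counted down to 6 alone, Ifih1 was at least 2.74-fold lower. Ddx58, which encodes the related sensor RIG-I, measured 8.94 and 8.82 on day 0, 8.22 and 8.18 on day 3 and 8.23 and 8.20 on day 4, and was lower by -0.67 (SE 0.06, adjusted p = 5.67e-05) at day 4. Tlr3, the endosomal sensor of double-stranded RNA, was lower by -0.30 at both days. Its day 4 call was lost with median centring over all probe sets (adjusted p = 0.0755) and without the first day 0 array or the second day 4 array. Its day 3 call was lost without the first array of day 0 or of day 3. Mavs, the adaptor through which MDA5 and RIG-I signal, changed by 0.01 (adjusted p = 0.956) at day 4 and -0.05 at day 3, at intensities from 9.88 to 10.02.

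**Figure D2:**
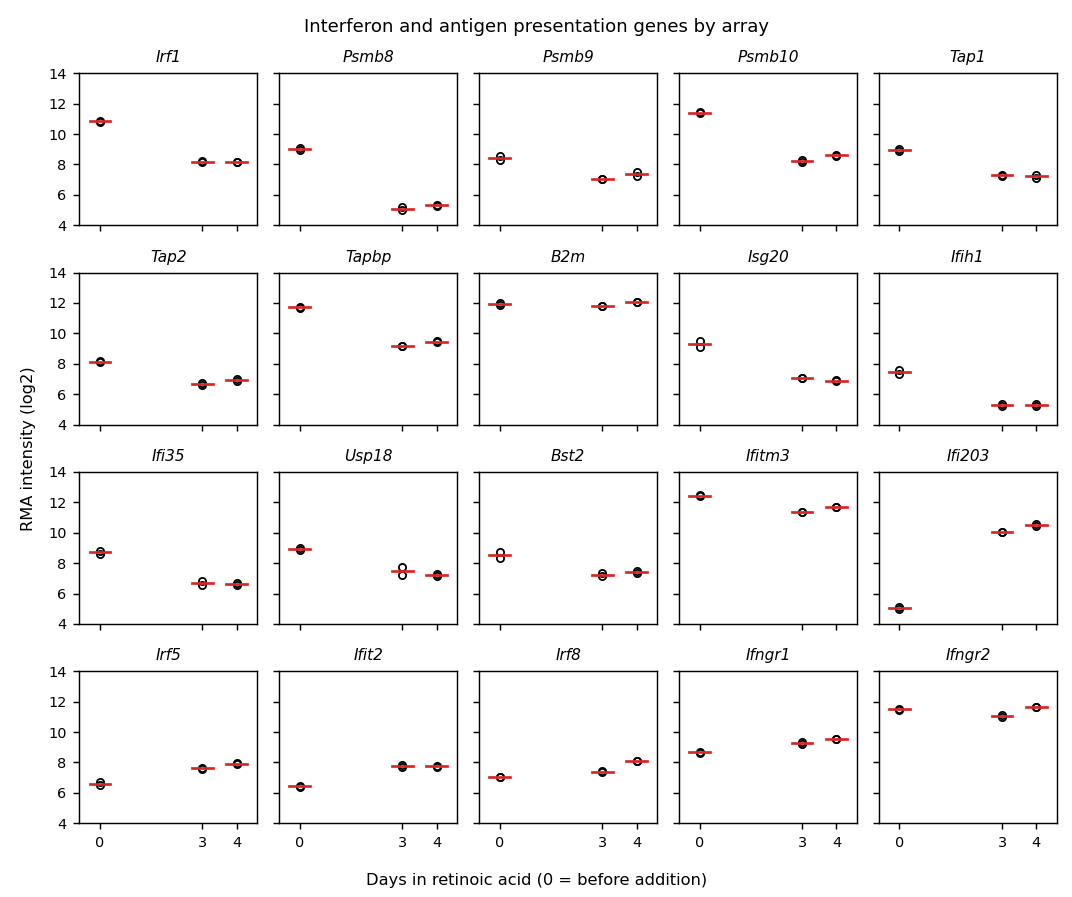
RMA log2 intensity (vertical axis) on each array (circles) and mean of a day (red bars) against days in RA (horizontal axis) for 20 of the measured genes. The falls of Irf1, Psmb8, Psmb10 and Tapbp and the rise of Ifi203 are all in place at day 3, while Irf8 is higher by 0.67 at day 4 than at day 3.

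The interferon-induced effectors moved in both directions. Of 14 measured genes 9 were lower, 4 higher and 1 not called at day 4 versus day 0, with a median change of -0.39. Over all genes 25.6% were lower and 25.9% higher. The largest change of all measured members was that of Ifi203, a member of the p200 family of interferon-induced nuclear proteins. Ifi203 measured 5.11 and 5.01 on day 0, 10.03 and 10.06 on day 3 and 10.54 and 10.42 on day 4. It passed from under the intensity of 6 to a bright signal, with a change of 5.42 (SE 0.07, adjusted p = 2.33e-08) at day 4 versus day 0, of 4.99 at day 3 versus day 0 and of 0.44 (adjusted p = 0.00393) at day 4 versus day 3. Since its day 0 level lies in the dim range, the ratio itself is not measured, and counted from 6 Ifi203 was at least 22.3-fold higher at day 4, a log2 change of 4.48 that is still the largest of the members. The p200 genes resemble each other, and whether the probes of Ifi203 also take up RNA of its relatives was not tested. Ifi205 and Ifi202b, relatives picked after their values were seen, averaged 4.82 and 4.75 on day 4, against 4.44 and 4.45 on day 0. Levels of the other relatives are not given here.

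Ifit2 rose while its relatives did not. Ifit2, which encodes a protein that binds viral RNA and limits its translation, measured 6.47 and 6.38 on day 0, 7.72 and 7.86 on day 3 and 7.79 and 7.72 on day 4. The change was 1.33 (SE 0.07, adjusted p = 3.96e-06) at day 4 and 1.37 at day 3, with no overlap with day 0. Ifit3, the neighbouring gene on chromosome 19, was lower by -0.25 (adjusted p = 0.0348) at day 4 and -0.33 (adjusted p = 0.0108) at day 3, and Ifit1 was lower by -0.49 (adjusted p = 0.00161) at day 4 and changed by -0.20 (adjusted p = 0.0770) at day 3. Both met the undetectable limits, as did Mx1 and Mx2, the dynamin-like antiviral proteins. The promoter windows of Ifit1 and Ifit3 held 2 ISRE matches each, and those of Ifit2 held a GAS match alone. The calls of Ifit3 and Mx1 at both days were lost under some alternatives, and Mx2 changed by -0.02 at day 4.

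Several effectors with a clear signal on day 0 fell strongly. Isg20, an exonuclease that degrades viral RNA, measured 9.53 and 9.12 on day 0, 7.07 and 7.04 on day 3 and 6.92 and 6.84 on day 4. It was lower by -2.44 (SE 0.12, adjusted p = 3.26e-06) at day 4, a 5.42-fold lower intensity, and by -2.27 at day 3. Ifi35, an interferon-induced leucine zipper protein, measured 8.81 and 8.61 on day 0, 6.58 and 6.81 on day 3 and 6.56 and 6.66 on day 4, with a change of -2.10 (SE 0.10) at day 4. For Isg20 and Ifi35 no array of Ebs in RA came within 1 log2 unit of an array of day 0. Usp18, which removes ISG15 from proteins and damps type I receptor signalling, measured 8.88 and 9.01 on day 0, 7.21 and 7.75 on day 3 and 7.31 and 7.18 on day 4, with a change of -1.70 (SE 0.16, adjusted p = 7.53e-05) at day 4. Bst2, or tetherin, which holds budding virus at the cell surface, measured 8.33 and 8.75 on day 0, 7.16 and 7.33 on day 3 and 7.36 and 7.49 on day 4, with a change of -1.11 (SE 0.13) at day 4.

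The 3 Ifitm genes, whose membrane proteins block the entry of viruses and which stem cells are known to express without interferon, did not move together. They lie side by side on chromosome 7. Ifitm3 measured 12.42 and 12.45 on day 0, 11.38 and 11.36 on day 3 and 11.68 and 11.68 on day 4, and was lower by -1.06 (SE 0.05, adjusted p = 2.88e-06) at day 3 and by -0.76 (SE 0.05, adjusted p = 1.28e-05) at day 4. Ifitm1 measured 12.87 and 12.91 on day 0, 12.35 and 12.46 on day 3 and 12.21 and 12.27 on day 4, with a change of -0.65 (SE 0.06) at day 4. Ifitm2 went the other way, with 12.72 and 12.80 on day 0, 13.10 and 13.12 on day 3 and 13.08 and 13.14 on day 4, and was higher by 0.35 (SE 0.06, adjusted p = 0.00133) at day 4. The other probe sets of these genes moved alike, by -0.74 for Ifitm1 and by 0.45 and 0.33 for Ifitm2 at day 4. The 3 genes are similar in sequence, and how far their probes tell them apart was not tested. Ifi30, a lysosomal thiol reductase that prepares antigens for MHC class II, measured 11.18 and 11.15 on day 0, 11.55 and 11.57 on day 3 and 11.87 and 11.89 on day 4, and was higher by 0.71 (SE 0.05, adjusted p = 1.86e-05) at day 4.

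The genes that make and load MHC class I peptides fell together, apart from B2m. Of 7 measured genes 6 were lower at day 4 than at day 0, each by at least 2-fold, 0 were higher and 1 was not called, with a median change of -1.73 at day 4 and -1.66 at day 3. Over all genes 25.6% were lower at day 4, and 4.61% were lower by at least 2-fold. Psmb8, the inducible catalytic subunit LMP7 of the immunoproteasome, measured 9.06 and 8.94 on day 0, 5.17 and 5.02 on day 3 and 5.25 and 5.35 on day 4. It fell under the intensity of 6, with a change of -3.70 (SE 0.08, adjusted p = 8.95e-08) at day 4 and -3.91 at day 3, and counted down to 6 alone it changed by -3.00. Psmb10, the inducible subunit MECL-1, measured 11.47 and 11.36 on day 0, 8.32 and 8.13 on day 3 and 8.53 and 8.65 on day 4, with a change of -2.82 (SE 0.08, adjusted p = 2.89e-07) at day 4. Psmb9, the inducible subunit LMP2, measured 8.53 and 8.31 on day 0, 7.01 and 7.08 on day 3 and 7.27 and 7.49 on day 4, with a change of -1.04 (SE 0.10, adjusted p = 6.91e-05) at day 4. All 3 inducible subunits were thus called lower at day 4 and at day 3 versus day 0, against 25.6% and 28.1% of all genes.

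The 3 constitutive subunits that they replace, Psmb5, Psmb6 and Psmb7, were set beside them. At day 4 versus day 0 none of the 3 was called (limma), with changes of -0.02 (adjusted p = 0.804) for Psmb5, -0.11 (adjusted p = 0.120) for Psmb6 and -0.04 (adjusted p = 0.563) for Psmb7. With an intensity trend and robust moderation Psmb6 was called lower at day 4 (adjusted p = 0.008). At day 3 versus day 0 all 3 were called lower (against 28.1% of all genes), by -0.18, -0.37 and -0.20. These falls were small beside those of the inducible subunits, of which the least was -1.37 at day 3 for Psmb9. The difference between the 2 kinds of subunit was not tested.

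**Figure D3:**
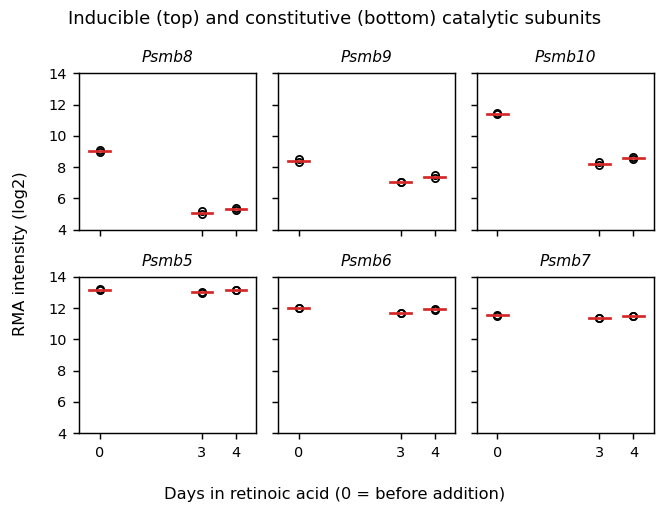
RMA log2 intensity (vertical axis) on each array (circles) and mean of a day (red bars) against days in RA (horizontal axis) for the inducible subunits Psmb8, Psmb9 and Psmb10 (top) and the constitutive subunits Psmb5, Psmb6 and Psmb7 (bottom). The inducible subunits changed by -3.70 to -1.04 at day 4 versus day 0, while the constitutive ones stay within 0.37 of day 0 on both days.

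The peptide transporter and the loading factor fell with the inducible subunits. Tap1 and Tap2, the chains of the transporter, lay at 8.99 and 8.91 for Tap1 and 8.13 and 8.15 for Tap2 on day 0, at 7.33 and 7.25 for Tap1 and 6.71 and 6.63 for Tap2 on day 3, and at 7.14 and 7.31 for Tap1 and 6.88 and 7.03 for Tap2 on day 4. Tap1 was lower by -1.73 (SE 0.07, adjusted p = 1.53e-06) and Tap2 by -1.18 (SE 0.07, adjusted p = 5.97e-06) at day 4. Psmb9, Tap1, Psmb8 and Tap2 follow each other on chromosome 17 with no other protein-coding gene between them, and all 4 fell. Tapbp, which encodes tapasin, measured 11.68 and 11.73 on day 0, 9.17 and 9.17 on day 3 and 9.48 and 9.41 on day 4, with a change of -2.26 (SE 0.05, adjusted p = 1.5e-07) at day 4 and -2.53 at day 3.

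B2m, the light chain that every class I molecule needs, differed from day 0 by little. It measured 11.90 and 11.99 on day 0, 11.82 and 11.80 on day 3 and 12.09 and 12.04 on day 4. The change was 0.12 (SE 0.06, adjusted p = 0.133) at day 4 and -0.13 (adjusted p = 0.0885) at day 3, and neither was called. With an intensity trend and robust moderation it was called higher at day 4 (adjusted p = 0.0109) and lower at day 3 (adjusted p = 0.00438), and with median centring over all probe sets it was higher at day 4 by 0.22 (adjusted p = 0.0178). At day 4 versus day 3 it was higher by 0.25 (adjusted p = 0.0173). The same step was upward for Tap2 (0.29), Tapbp (0.28), Psmb9 (0.33) and Psmb10 (0.37), so 5 of the 7 class I genes were called higher at day 4 than at day 3, against 15.8% of all genes. None of these 5 calls held with every array left out in turn. B2m lost its call without either day 3 array and without either day 4 array (adjusted p = 0.0551 to 0.0777), Tapbp without either day 3 array or the first day 4 array, Tap2 and Psmb9 without either day 3 array or the second day 4 array, and Psmb10 without the second array of day 3 or of day 4. The call of Psmb9 was also lost with the replicate number as a block (adjusted p = 0.0575).

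The rest of the pathway was read from lists of other genes, 154 in all, of which 124 were measured. At day 4 versus day 0, 23 were higher, 50 lower and 51 not called, with a median change of -0.12. The 58.9% called compare with 51.5% of all genes, of which 25.9% were higher and 25.6% lower. Of 15 measured interferons 11 were undetectable, 1 was called and 14 were not. The one called was Ifng, the type II interferon, lower by -0.24 (adjusted p = 0.0389) at intensities of 5.75 and 5.93 on day 4, against 6.02 and 6.14 on day 0. That call was lost with only the 2 days compared (adjusted p = 0.0557), with median centring over all probe sets (change -0.13, adjusted p = 0.183), without the second day 0 array (-0.17), without the first day 4 array (-0.15) and without either day 3 array. Of the brighter interferons, Ifnl2, of type III, averaged 7.85 on day 4 and 7.68 on day 0, a change of 0.17 (adjusted p = 0.0560) that was called higher with median centring over all probe sets (0.27, adjusted p = 0.00683), with cyclic loess (adjusted p = 0.0242) and when genes averaging under 6 were left out (adjusted p = 0.0345). Ifna5, of type I, averaged 7.78 on both day 4 and day 0. Ifnb1, the beta interferon, averaged 4.81 on day 4 and 4.86 on day 0 and met the undetectable limits.

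Of 13 other receptor and signalling genes 7 were higher, 4 lower and 2 not called at day 4 versus day 0 (84.6% called, against 51.5% of all genes). Irf2bpl, a relative of the partners of IRF2, was higher by 1.26 (SE 0.08), Il10rb, a chain of the receptor for type III interferon, by 0.75 (SE 0.09) and Irf2bp2 by 0.58 (SE 0.06). Ptpn6, the phosphatase SHP-1, was lower by -1.06 (SE 0.07), Stat3, through which Lif acts in stem cells, by -0.88 (SE 0.07) and Socs1, an inhibitor of Janus kinases, by -0.40 (SE 0.05). Socs3 and Tyk2 were not called. Of 20 other nucleic acid sensing genes 3 were higher, 10 lower and 7 not called (65.0% called), with Samhd1, which depletes nucleotides, lower by -1.30 (SE 0.05), the RNA-editing enzyme Adar by -0.77 (SE 0.08) and the adaptor Myd88 by -0.75 (SE 0.07), and with Rnf135 higher by 0.62 (SE 0.15), Rnaseh2c by 0.32 (SE 0.07) and the adaptor Ticam1 by 0.28 (SE 0.05). All 3 higher calls were lost under an alternative: Rnf135 without the first day 0 array (adjusted p = 0.0576) or the first day 4 array (0.42, adjusted p = 0.0508), Rnaseh2c without the second day 0 array (adjusted p = 0.0525), and Rnaseh2c and Ticam1 with median centring over the genes tested (0.17, adjusted p = 0.0856, and 0.13, adjusted p = 0.0789). Rnaseh2a and Traf6 were not called.

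Of 45 measured genes of the other interferon-induced list 25 were lower, 8 higher and 12 not called at day 4 versus day 0 (73.3% called, against 51.5% of all genes). Irgm1, an immunity-related GTPase, measured 10.91 and 10.91 on day 0, 7.85 and 7.83 on day 3 and 8.11 and 8.01 on day 4, with a change of -2.85 (SE 0.06, adjusted p = 7.37e-08) at day 4. Oasl2, of the oligoadenylate synthetase family, was lower by -2.80 (SE 0.06), and Gbp4, a guanylate-binding protein, by -2.78 (SE 0.12). Gbp4 averaged 8.69 on day 0 and 5.91 on day 4, just under the intensity of 6. Iigp1, another immunity-related GTPase, went the other way, with 5.63 and 5.23 on day 0, 6.88 and 6.62 on day 3 and 8.22 and 8.04 on day 4, and was higher by 2.70 (SE 0.15, adjusted p = 4.58e-06) at day 4. Rsad2, which encodes viperin, was higher by 0.58 (SE 0.11) and Gbp5 by 0.47 (SE 0.06). Both were dim: Rsad2 averaged 5.73 on day 0 and 6.31 on day 4. Gbp5 averaged 4.94 on day 0, 4.89 on day 3 and 5.41 on day 4, always under the intensity of 6. Eif2ak2, the RNA-activated kinase PKR, and Ifitm5 were not called, at -0.26 (adjusted p = 0.0609) and -0.28 (adjusted p = 0.0736). With the replicate number as a block Eif2ak2 was called lower (adjusted p = 0.0165), and with only the 2 days compared so was Ifitm5 (adjusted p = 0.0192).

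Of 28 other antigen presentation genes 10 were lower, 5 higher and 13 not called, and the 53.6% called are close to the 51.5% of all genes. The tapasin relative Tapbpl was lower by -1.66 (SE 0.15), the peptide-trimming enzyme Erap1 by -1.58 (SE 0.06) and Cd74, the invariant chain of MHC class II, by -1.19 (SE 0.07). Cd74 averaged 6.98 on day 0 and 5.79 on day 4, under the intensity of 6. Mr1 and Cd1d1, class I-like molecules that present metabolites and lipids, were higher by 1.85 (SE 0.11) and 1.63 (SE 0.06), and H2-Ke6 by 0.87 (SE 0.05). H2-Ke6 lies in the MHC region but encodes a steroid dehydrogenase. The chaperones Canx and Calr, which fold class I chains and many other proteins, changed by -0.07 and 0.12 and were not called.

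**Figure D4:**
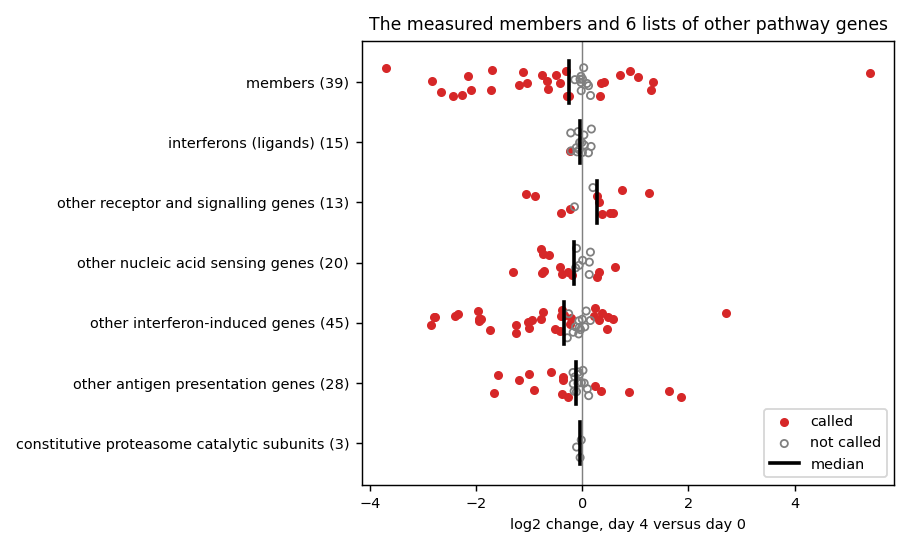
Log2 change at day 4 versus day 0 (horizontal axis) of each measured gene (circles, filled red where called) with the median of each list (black bars), for the 39 members and 6 lists of other pathway genes. The interferons stay within 0.24 of no change, while the members reach from -3.70 to 5.42.

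All samples are labelled as embryonic stem cells, and markers of the cell types in the Ebs changed over the same days. The mean level of 10 pluripotency markers was 6.57 to 6.69 on day 4 and 6.73 to 6.76 on day 3, against 9.14 to 9.18 on day 0, and all 10 were called lower at day 4. Mesenchyme and fibroblast markers averaged 8.83 to 8.84 on day 4 and 8.53 to 8.59 on day 3, against 7.39 to 7.55 on day 0, with 6 higher, 3 lower (Thy1, Pdgfrb and Col1a1) and 1 not called of 10 at day 4 versus day 0. Red blood cell markers averaged 8.64 to 8.81 on day 4 and 10.17 to 10.30 on day 3, against 7.48 to 7.51 on day 0, with 3 higher, 1 lower and 3 not called of 7 at day 4 versus day 0 and a median change of 0.09. The embryonic globin genes Hba-x (4.54) and Hbb-y (4.25) carried that mean, and Gata1 was lower (-1.01). The remaining marker lists were mixed at day 4 versus day 0. Of 9 endothelial markers 5 were higher and 4 lower. Of 10 neuron markers 3 were higher, 4 lower and 3 not called, and of 8 visceral endoderm markers 3 were higher, 1 lower and 4 not called. Over all genes 25.9% were higher and 25.6% lower. The part of these shifts in the changes of the interferon and antigen presentation genes was not tested.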

How the data were processed

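The 6 arrays, 2 for each of 3 days, were grouped by their titles. The deposited values are log2 intensities, which the authors obtained by RMA in Partek (version not given in the sources used here). RMA corrects the background, brings the arrays to 1 distribution and summarises the probes of a probe set, so changes are read against the whole array and differences between dim signals are compressed. The scanner files were not used here. Of 35557 probe sets, 21789 carried 1 gene symbol in the platform annotation, 1621 carried several and 12147 were unnamed here. Where a gene had several (999 genes), the brightest by mean over the arrays stood for it, giving 19938 genes.

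Changes were tested with limma 3.58.1 in R 4.3.3, by lmFit and plain eBayes without trend or robust moderation, with 1 mean per day and all arrays in 1 fit (3 residual and 4.07 prior degrees of freedom). Tests were two-sided, Benjamini-Hochberg adjustment ran over all 19938 genes, and a gene was called where its adjusted p was at most 0.05. Lists were described by counts and medians and not tested. Intensities carry no read depth. The small number of arrays limits the precision, and so does the compression of dim signals.

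The members and lists were chosen with earlier results of these data known. Every measured member is named. From each list of other pathway genes the named ones are the up to 3 called genes with the largest rise at day 4 versus day 0, the up to 3 with the largest fall, and the up to 2 brightest that were not called. Psmb7, Ifnb1, Ifi205, Ifi202b and the single cell type markers were named after their values were seen. Promoter windows came from RefSeq (GRCm38.p6) and were matched by symbol, and the array values themselves name no genome build. Alternatives were other normalizations, moderation, filters, probe set rules, samples in the fit, the replicate number as a block, each array left out and a 2-fold limit.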

Additional observations from a re-analysis of the deposited data

Results flagged for a closer look

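For 14 of the 39 measured members (35.9%, against 28.1% of all genes) the change against day 0 differed between day 4 and day 3. This is the test of day 4 versus day 3 in the same fit (limma, adjusted over all genes). No explanation was weighed. The difference was upward for Irf8 at 0.67, Ifngr2 at 0.61, Ifi203 at 0.44, Psmb10 at 0.37, Psmb9 at 0.33, Ifi30 at 0.32, Ifitm3 at 0.31, Irf5 at 0.29, Tap2 at 0.29, Ifngr1 at 0.28, Tapbp at 0.28 and B2m at 0.25, all on the log2 scale. It was downward for Ifit1 at -0.29 and Jak1 at -0.27. The adjusted p ranged from 0.000517 for Irf8 to 0.0399 for Psmb9. Ifngr2 is the one gene among them that was called lower at day 3 versus day 0 and was not called at day 4. The calls of Ifi203, Ifi30, Ifitm3, Ifngr2 and Irf8 were kept under every alternative tried other than a 2-fold limit, and the other 9 were lost under at least 1. With 2 arrays per day, no sample could be examined for standing apart from its group.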

How the results depend on the processing

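No change of a member turned its sign in a called result under any alternative. Of the calls, 25 of 29 at day 4 versus day 0, 25 of 30 at day 3 versus day 0 and 5 of 14 at day 4 versus day 3 were kept under every alternative other than the 2-fold limit. Those lost under at least 1 were Ifit3, Irf7, Mx1 and Tlr3 at day 4 and Ifit3, Ifnar2, Jak1, Mx1 and Tlr3 at day 3, and the cause was not tested. Calls were gained under at least 1 alternative by 7 members at day 4 versus day 0 (B2m, Ifngr2, Irf2, Irf3, Irf9, Jak1 and Stat2), by B2m and Ifit1 at day 3 versus day 0, and by 5 between the days in RA (Ifitm1, Ifnar2, Irf3, Psmb8 and Usp18). Of the other pathway genes named, Ifng, Rnaseh2c, Rnf135 and Ticam1 lost their day 4 call under at least 1 alternative, and Calr, Canx, Eif2ak2, Ifitm5, Ifnl2, Psmb5, Psmb6, Socs3, Traf6 and Tyk2 gained one. With a 2-fold limit, 16 members (4 higher, 12 lower) and 2080 genes were called at day 4 versus day 0, 16 members (3 higher, 13 lower) and 1840 genes at day 3 versus day 0, and 0 members (0 higher, 0 lower) and 153 genes at day 4 versus day 3. Leaving out 1 array at a time gave 26 to 29 members at day 4 versus day 0, 26 to 29 at day 3 versus day 0 and 6 to 14 at day 4 versus day 3 (6 to 12 higher and 0 to 2 lower), with 2728 to 5276 genes in the last, where fewer arrays enter the test and a lone array is assumed to vary like the other days. Median centring over all probe sets left 0 members lower at day 4 versus day 3 and called 10210 genes there. Samples with the same replicate number correlated at 0.06, 0.03 and 0.08 in their deviations over all genes. Such low values do not settle whether a number marks 1 series of cultures. With the replicate block 29 members and 10251 genes were called at day 4 versus day 0, 29 members and 10359 genes at day 3 versus day 0, and 13 members and 5469 genes between the days in RA, and the calls of Ifnar2 at day 3 versus day 0 and Psmb9 at day 4 versus day 3 were lost. Among the members no other call changed with it, and among the other genes named Eif2ak2 gained one. Of the members, 6 met the undetectable limits, where RMA compresses differences.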
